A study of Homo sapiens with 3 samples.

Results

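The epidermal differentiation complex is a cluster of genes on human chromosome 1q21 that epithelia use to build a barrier, and the S100 genes lie at both of its ends and within it. The 40 genes described here, listed for this locus, are 6 filaggrin-like genes, involucrin (IVL), 10 small proline-rich (SPRR) genes, 6 late cornified envelope (LCE) genes, 2 peptidoglycan recognition genes (PGLYRP3 and PGLYRP4) and 15 S100 genes. They were picked by gene name among the 58037 genes of the deposited count table, 39 of them had a count in any library, and 28 of them averaged 1 CPM or more over the libraries, the filter used throughout. CPM are counts per 1000000 of a library size scaled with the TMM method of edgeR.

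RNA was sequenced in bulk from RWPE1 cells, an immortalized line of normal adult human prostate epithelial cells, in 3 libraries. The first was from OLFM4-wild cells, the second from OLFM4-knockout cells, and the third carries the label OLFM4-active. OLFM4 encodes olfactomedin 4, a secreted glycoprotein. Per the study's methods, the cells grew in prostate epithelial basal medium, a knockout reporter line was made with double nickase CRISPR/Cas9 plasmids and an OLFM4-wild reporter line with CRISPR/Cas9 activation plasmids, both were puromycin-selected stable lines that carry GFP and that the study calls clones, and knockout cells were sorted by GFP before sequencing. Which of these lines the deposited OLFM4-wild library and the library labelled OLFM4-active came from is not given in the sources used here, so the transfection, the selection or the clone cannot be told apart from the genotype. There was 1 library per condition and no replicate, so each comparison is between libraries and not between conditions, and no test across conditions could be made.

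The libraries held between 16309906 and 58837147 counts, that of OLFM4-wild cells being the shallowest and that of OLFM4-knockout cells the deepest. OLFM4 itself, the check of the labels, had 214 counts (11.8 CPM) in OLFM4-wild cells and 131 counts (2.55 CPM) in OLFM4-knockout cells. It had 16 counts (0.670 CPM), the lowest level of the 3, in the library labelled OLFM4-active, which goes against that label. Every direction drawn from that library below is therefore one of the library labelled OLFM4-active and not of an activated gene. The 7 markers of basal epithelium all passed 1 CPM, with summed levels of 18944 CPM in OLFM4-wild cells, 41509 CPM in OLFM4-knockout cells and 22969 CPM in the library labelled OLFM4-active. KRT5 made up the larger part of each sum (12232, 27077 and 13686 CPM), whereas TP63 had 414, 472 and 450 CPM. Of the markers that define luminal prostate cells, KLK3 had 2 counts in OLFM4-wild cells and 0 in the other two, and ACP3 had 8.37, 5.42 and 4.19 CPM.

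In stratified epithelia, cells that leave the basal layer switch on the genes of this complex in sequence. Involucrin and the SPRR and LCE proteins are cross-linked by transglutaminases under the cell membrane into the cornified envelope, and filaggrin-like proteins bundle keratin filaments or join that envelope. S100 proteins are small calcium-binding proteins that work inside the cell by binding annexins and other partners, and several of them, such as the pair S100A8 and S100A9 that forms calprotectin, are also released as antimicrobial and inflammatory signals.

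The members differed in opposite directions in OLFM4-knockout cells. Of the filaggrin-like genes 5 of 6, of the SPRR genes that passed the filter 5 of 6, and the antimicrobial S100 genes S100A7, S100A8 and S100A9 were lower than in OLFM4-wild cells, FLG by 32.2-fold and S100A8 by 6.99-fold. Of these, FLG2, RPTN, CRNN, SPRR2A, SPRR2E, SPRR3 and S100A7 reached 1 CPM in OLFM4-wild cells alone and passed the filter through that library. Their lower levels therefore cannot serve as support for a fall. Of all genes that passed the filter, 2.77% were higher and 3.96% lower by the rule given below. S100A2, S100A3, S100A13 and S100A16, which lie side by side with other S100 genes at the far end of the cluster, were higher, S100A2 by 4.38-fold. Involucrin, S100A10 and S100A11 differed by 1.19-fold, 1.06-fold and 1.14-fold between the same libraries. In what follows a gene is called higher or lower when the whole exact 95% Clopper-Pearson interval of its ratio, which covers counting error only, lies past 2-fold.

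Of the 28 members that passed the filter, 4 were called higher and 15 lower in OLFM4-knockout relative to OLFM4-wild cells, and 9 were not called. Of all 16600 genes at that level, 2.77% were called higher and 3.96% lower. The median log2 fold change was -1.53 over these 28 members and 0.10 over all genes tested. The 28 members cannot serve as support for a fall, since 8 of them (FLG2, RPTN, CRNN, SPRR2A, SPRR2E, SPRR3, PGLYRP3 and S100A7) reached 1 CPM in OLFM4-wild cells alone and passed the filter through that library. Among the 19 members with at least 1 CPM in each library, 4 were called higher and 7 lower, against 2.52% and 2.89% of the 15454 genes at that level, and their median was -0.25 against 0.11. In bulk RNA, fewer cells that express a gene and less of its RNA per cell cannot be told apart.

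**Figure D1:**
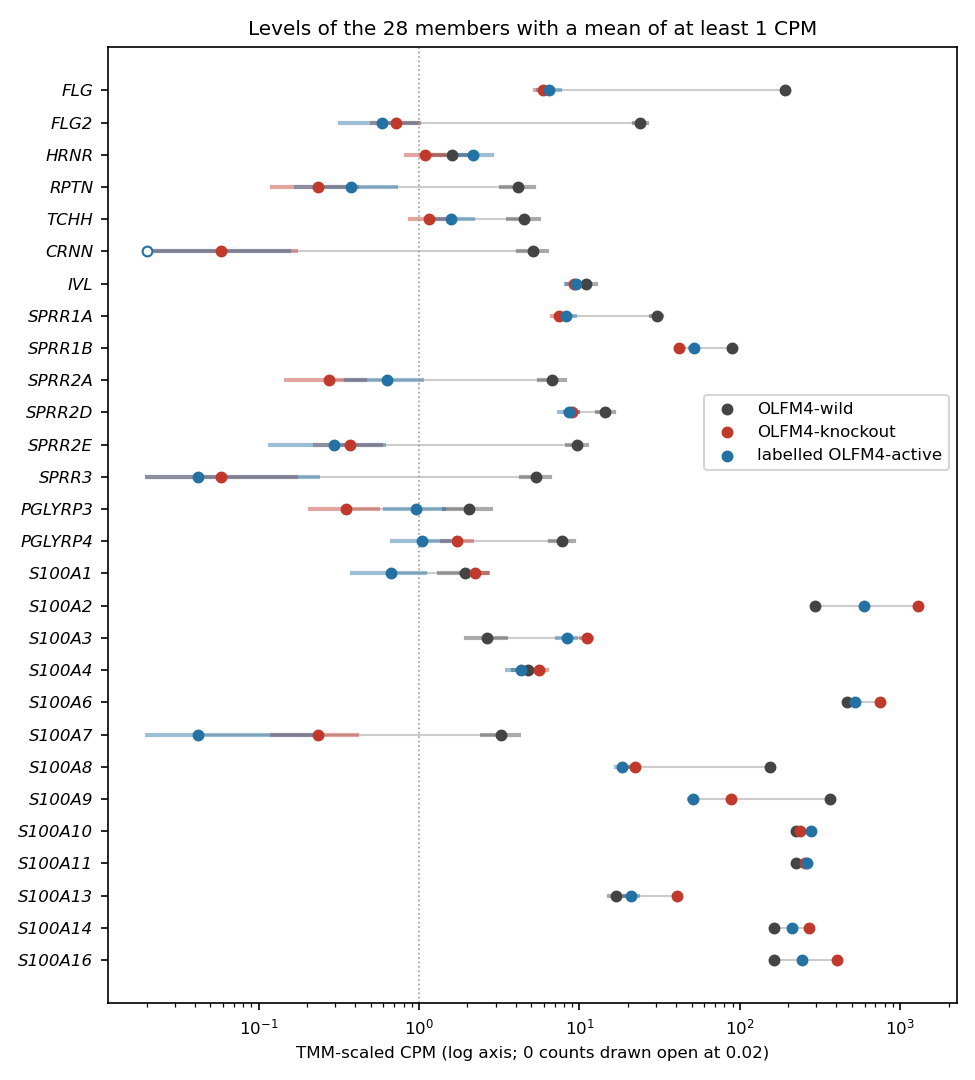
TMM-scaled CPM (log axis) of the 28 members averaging 1 CPM or more, 1 point per library with its 95% Clopper-Pearson counting interval as a thick line, and CRNN in the library labelled OLFM4-active, with 0 counts, drawn as an open point at 0.02. The filaggrin-like genes other than HRNR sit furthest to the right in OLFM4-wild cells (FLG at 191 CPM against 5.92 and 6.49 CPM). FLG2, RPTN and CRNN among them passed the filter through that library alone. S100A2 runs from 294 CPM in OLFM4-wild cells to 1288 CPM in OLFM4-knockout cells.

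The filaggrin-like genes encode large S100-fused proteins of the upper epidermal layers. Of the 6, 5 were called lower in OLFM4-knockout cells, against 3.96% of all genes tested. FLG2, RPTN and CRNN among the 5 passed the filter through OLFM4-wild cells alone. FLG encodes profilaggrin, whose processed repeats bundle keratin filaments. FLG (chr1:152302165-152325239, minus strand, GRCh38) had 3475 counts in OLFM4-wild cells, 304 in OLFM4-knockout cells and 155 in the library labelled OLFM4-active, or 191, 5.92 and 6.49 CPM. On the log2 scale the difference was -5.01 (95% interval -5.19 to -4.84) in OLFM4-knockout relative to OLFM4-wild cells and -4.88 (-5.12 to -4.65) in the library labelled OLFM4-active relative to the same cells. The OLFM4-wild library stood far above both others, which did not differ from each other beyond counting error (-0.13, -0.42 to 0.16). FLG2, a close relative that shares the calcium-binding head of the S100 fold, had 24.0, 0.721 and 0.586 CPM in the same order, and its log2 fold change was -5.04 (-5.58 to -4.57) in OLFM4-knockout relative to OLFM4-wild cells. Within each library FLG had 797 counts for every 100 of FLG2 in OLFM4-wild cells (721 to 882), 822 in OLFM4-knockout cells (583 to 1189) and 1107 in the library labelled OLFM4-active (640 to 2072). These within-library ratios need no scaling of library sizes, and their intervals overlapped.

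CRNN encodes cornulin, a protein of squamous epithelium. It had 93 counts (5.12 CPM) in OLFM4-wild cells, 3 counts in OLFM4-knockout cells and 0 in the library labelled OLFM4-active. With 3 counts its log2 fold change in OLFM4-knockout relative to OLFM4-wild cells, -6.24, had a wide interval from -8.76 to -4.86, and against the floor of 3 counts it was at least 40.8-fold lower in the library labelled OLFM4-active. RPTN, which encodes the envelope precursor repetin, went from 4.13 CPM to 0.234 CPM in OLFM4-knockout cells and 0.377 CPM in the library labelled OLFM4-active. TCHH, which encodes trichohyalin of the hair follicle's inner root sheath, was called lower in OLFM4-knockout cells (-1.97, -2.48 to -1.47), and in the library labelled OLFM4-active its interval of -2.10 to -0.93 reached across the 2-fold limit. HRNR, which encodes hornerin, was the 1 gene of the 6 that was not called, with 29, 56 and 52 counts and a log2 fold change of -0.56 (-1.22 to 0.15). HRNR and FLG are built of near-identical repeats, and 42.7% and 20.3% of their 75-base exon windows occur at more than 1 place in the genome, so that their counts of uniquely mapped reads are uncertain. Summed over the 6 genes, the level was 231 CPM in OLFM4-wild cells, 9.18 CPM in OLFM4-knockout cells and 11.2 CPM in the library labelled OLFM4-active. FLG made up the larger part of this sum in each library (191, 5.92 and 6.49 CPM).

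The promoters of members that did and did not differ are shown because many of them hold a TATA box or an AP-1 motif close to their starts. Each line is the 250 bases directly before the transcription start, 5′ to 3′ on the gene's strand, from RefSeq on GRCh38.p14. Capitals mark the TATA box TATAAA and the AP-1 motif TGANTCA, both searched on both strands. FLG (chr1:152325240-152325489, minus strand) was called lower, IVL (chr1:152908296-152908545, plus strand) was not called, S100A8 (chr1:153391074-153391323, minus strand) and S100A9 (chr1:153357604-153357853, plus strand) were called lower, S100A2 (chr1:153565845-153566094, minus strand) was called higher and S100A10 (chr1:151993860-151994109, minus strand) was not called, all in OLFM4-knockout relative to OLFM4-wild cells. The windows of FLG, IVL, S100A8, S100A9 and S100A10 lie directly outside their own genes. That of S100A2 lies inside the gene, since other transcripts of it start further upstream.
FLG: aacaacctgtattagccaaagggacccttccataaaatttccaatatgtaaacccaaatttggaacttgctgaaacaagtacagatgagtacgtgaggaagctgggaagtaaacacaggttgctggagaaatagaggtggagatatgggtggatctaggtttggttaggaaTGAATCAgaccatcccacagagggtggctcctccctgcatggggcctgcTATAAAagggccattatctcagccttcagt
IVL: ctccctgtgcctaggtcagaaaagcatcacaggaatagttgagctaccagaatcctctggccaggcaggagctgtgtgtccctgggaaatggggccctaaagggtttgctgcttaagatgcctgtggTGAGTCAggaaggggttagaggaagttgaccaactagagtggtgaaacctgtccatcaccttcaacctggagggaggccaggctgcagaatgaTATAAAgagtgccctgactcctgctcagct
S100A8: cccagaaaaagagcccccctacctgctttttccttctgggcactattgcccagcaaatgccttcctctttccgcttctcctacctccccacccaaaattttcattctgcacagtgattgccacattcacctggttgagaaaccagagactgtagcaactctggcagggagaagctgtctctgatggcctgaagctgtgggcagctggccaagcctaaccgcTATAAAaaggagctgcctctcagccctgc
S100A9: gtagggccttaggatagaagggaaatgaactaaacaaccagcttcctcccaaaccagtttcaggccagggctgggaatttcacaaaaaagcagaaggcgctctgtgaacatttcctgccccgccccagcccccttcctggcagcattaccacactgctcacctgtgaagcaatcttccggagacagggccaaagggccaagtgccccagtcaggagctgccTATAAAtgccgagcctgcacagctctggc
S100A2: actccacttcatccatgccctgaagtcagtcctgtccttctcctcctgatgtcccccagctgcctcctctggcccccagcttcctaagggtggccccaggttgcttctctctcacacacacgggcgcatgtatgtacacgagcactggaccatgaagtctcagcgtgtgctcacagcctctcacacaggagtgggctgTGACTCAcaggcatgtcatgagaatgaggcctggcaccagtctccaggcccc
S100A10: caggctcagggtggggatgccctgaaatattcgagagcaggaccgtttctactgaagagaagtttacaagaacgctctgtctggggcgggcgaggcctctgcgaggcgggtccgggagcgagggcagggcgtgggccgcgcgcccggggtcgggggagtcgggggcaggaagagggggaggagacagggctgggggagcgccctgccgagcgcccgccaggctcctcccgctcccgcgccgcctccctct

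FLG and IVL carry both motifs, with the TATA box at the same position of -30, counted in bases from the start, and one was 32.2-fold lower while the other differed by 1.19-fold. S100A8 and S100A9 carry only the TATA box, at -29 in both. S100A2 carries the AP-1 motif and no TATA box, and S100A10 carries neither. Promoter windows were found for 37 of the 40 members, and those of SPRR2D, SPRR2E and LCE1B were not. TATAAA was present in 19 of the 37 (51.4%) against 9.08% of the 14549 promoters searched, and TGANTCA in 16 (43.2%) against 4.65%. The SPRR windows held TATAAA in 7 of 8 and TGANTCA in 6 of 8, the S100 windows held them in 6 and 4 of 15, and the LCE and PGLYRP windows held neither. Both stood together in 11 members and in 0.818% of all promoters, and the 2 motifs overlapped each other in 0 of the 11. In a window from -35 to -25, chosen after the positions were seen, TATAAA was found in 18 members (48.6%) and 4.3% of all promoters. Of the other motifs searched on both strands, CACCC, which KLF factors bind, was in 25 members (67.6%) and 58.6% of all promoters, and AACCGGTT of the GRHL factors was in 0 members and 0.144% of all promoters. TATAAA was present in 10 of the 14 members called lower with a promoter window, in 1 of the 4 called higher and in 3 of the 8 tested members that were not called. TGANTCA was present in 9, 2 and 1 of the same groups. A match is a run of letters and not a binding site shown by these data.

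**Figure D2:**
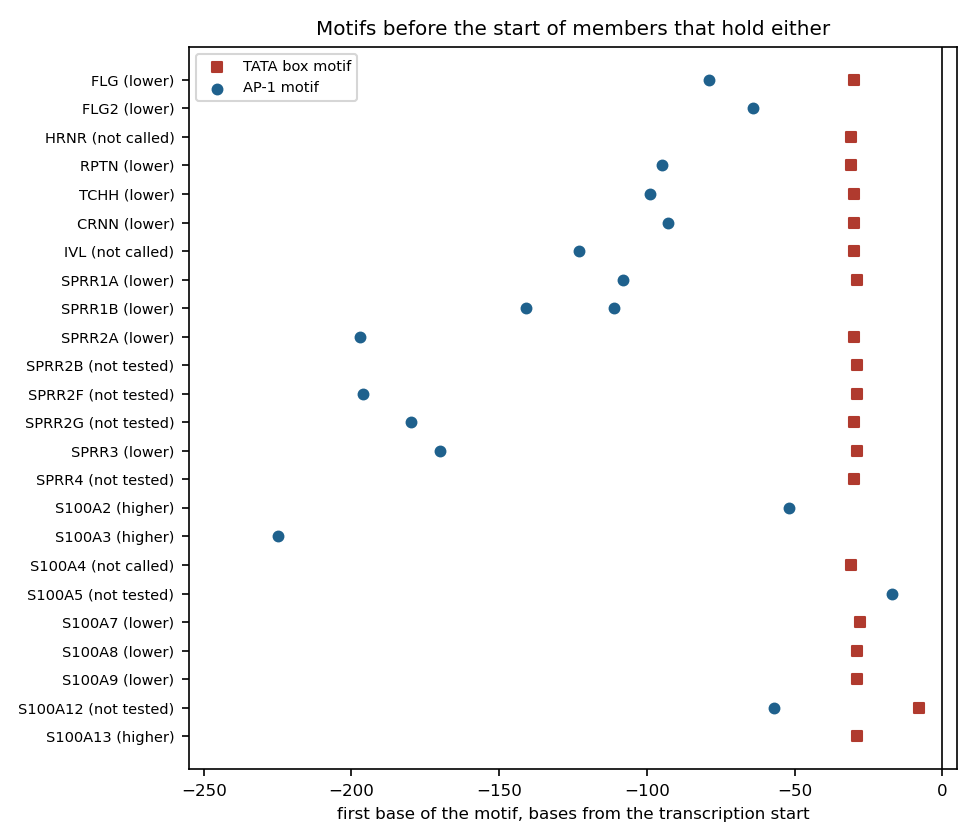
Position of the first base of each TATA box motif (squares) and AP-1 motif (circles) before the transcription start, in bases, for the members that hold either, with the call in OLFM4-knockout relative to OLFM4-wild cells in brackets. The TATA box starts between -31 and -28 in each of these members but S100A12 (-8), while the AP-1 motif is spread from -225 to -17.

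SPRR proteins are short, proline-rich cross-bridges of the envelope. Of the 10 SPRR genes, 6 passed the filter and 5 of these were called lower in OLFM4-knockout cells, against 3.96% of all genes tested. SPRR2A, SPRR2E and SPRR3 among the 5 passed the filter through OLFM4-wild cells alone. SPRR1B, the highest of the SPRR genes per kb of exon, had 1628, 2149 and 1236 counts in OLFM4-wild cells, OLFM4-knockout cells and the library labelled OLFM4-active, or 89.6, 41.9 and 51.7 CPM. Its log2 fold change was -1.10 in OLFM4-knockout relative to OLFM4-wild cells, with the upper end of the interval at the limit of the call, and DESeq2 size factors ended it. SPRR1A went from 30.3 CPM to 7.44 and 8.20 CPM, a log2 fold change of -2.02 (-2.22 to -1.83) in OLFM4-knockout relative to OLFM4-wild cells. For every 100 counts of SPRR1B there were 33.8 of SPRR1A in OLFM4-wild cells (30.6 to 37.2), 17.8 in OLFM4-knockout cells (15.9 to 19.8) and 15.9 in the library labelled OLFM4-active (13.6 to 18.5). These 2 genes of one family therefore did not keep their ratio, and OLFM4-wild cells stood apart from both others.

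The SPRR2 genes, a set of closely related copies, also differed among themselves. SPRR2A and SPRR2E passed the filter through OLFM4-wild cells alone, so their levels and their ratios to SPRR2D cannot serve as support for a fall. SPRR2D had 263, 458 and 205 counts, or 14.5, 8.92 and 8.58 CPM, and at a log2 fold change of -0.70 (-0.92 to -0.47) it was not called. SPRR2A (6.77, 0.273 and 0.628 CPM) and SPRR2E (9.69, 0.370 and 0.293 CPM) had log2 fold changes of -4.59 and -4.68 in OLFM4-knockout relative to OLFM4-wild cells. Set against 100 counts of SPRR2D, SPRR2A had 46.8 in OLFM4-wild cells, 3.06 in OLFM4-knockout cells and 7.32 in the library labelled OLFM4-active, and SPRR2E had 66.9, 4.15 and 3.41. Between 10.9% and 26.8% of the 75-base exon windows of SPRR2A, SPRR2B, SPRR2D and SPRR2E occur elsewhere in the genome, which makes the split of reads among these copies uncertain. SPRR3, which encodes the esophageal cross-bridge protein esophagin, had 97 counts in OLFM4-wild cells, 3 in OLFM4-knockout cells and 1 in the library labelled OLFM4-active, with log2 fold changes of -6.30 (-8.82 to -4.92) and -6.42 (-12.31 to -4.48) against OLFM4-wild cells. SPRR2G stayed under the filter with 38, 3 and 6 counts, as did SPRR2B (7, 4 and 0), SPRR2F (2, 1 and 0) and SPRR4 (3, 9 and 0). Summed over the 10 genes, the level was 159, 59.3 and 69.7 CPM, of which SPRR1B made up the larger part in each library.

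Involucrin, the early scaffold of the envelope, was not called, and neither was SPRR2D, whereas SPRR1A and SPRR1B were called lower in OLFM4-knockout cells. SPRR4, the SPRR gene closest to IVL, stayed under the filter. IVL (chr1:152908546-152911886, plus strand) had 199, 472 and 226 counts in OLFM4-wild cells, OLFM4-knockout cells and the library labelled OLFM4-active, or 5.09, 4.27 and 4.40 CPM per kb of exon. Its log2 fold change of -0.25 (-0.49 to -0.01) in OLFM4-knockout relative to OLFM4-wild cells lay wholly within 2-fold, as did that of the library labelled OLFM4-active (-0.21, -0.49 to 0.07). The LCE genes, which encode late envelope proteins, were scarcely detected, and 0 of the 6 passed the filter. LCE3D had 27 counts in OLFM4-wild cells, 5 in OLFM4-knockout cells and 0 in the library labelled OLFM4-active. LCE3E had 8, 13 and 2 counts, LCE1B 3, 3 and 0, LCE1C 1, 0 and 2, and LCE3A 1, 0 and 0, all under 1 CPM, where 3 counts, taken as the floor, make 0.165, 0.0584 and 0.126 CPM. LCE3C was the single member with 0 counts in each library.

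PGLYRP3 and PGLYRP4 encode secreted proteins that bind bacterial cell walls. PGLYRP4 had 142, 89 and 25 counts, or 7.81, 1.73 and 1.05 CPM, with log2 fold changes of -2.17 (-2.57 to -1.78) and -2.88 (-3.58 to -2.28) in OLFM4-knockout cells and in the library labelled OLFM4-active, both relative to OLFM4-wild cells. PGLYRP3 had 37, 18 and 23 counts, and it was called lower in OLFM4-knockout cells (-2.52, -3.44 to -1.69). Its interval in the library labelled OLFM4-active (-1.90 to -0.29) was not wholly past 2-fold. PGLYRP3 passed the filter through OLFM4-wild cells alone, so its lower level cannot serve as support for a fall.

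The antimicrobial S100 genes sit in a stretch of 103 kb (chr1:153357854-153460651) and were lower than in OLFM4-wild cells in both other libraries. S100A9 (chr1:153357854-153361023, plus strand) had 6592 counts in OLFM4-wild cells, 4520 in OLFM4-knockout cells and 1215 in the library labelled OLFM4-active, or 363, 88.1 and 50.9 CPM. S100A8, its partner in calprotectin, had 2811, 1135 and 442 counts, or 155, 22.1 and 18.5 CPM. The order of the libraries was the same for both genes, with OLFM4-wild cells far above the others. In OLFM4-knockout relative to OLFM4-wild cells the log2 fold change was -2.04 (-2.10 to -1.99) for S100A9 and -2.81 (-2.91 to -2.71) for S100A8, and in the library labelled OLFM4-active it was -2.83 (-2.92 to -2.75) and -3.06 (-3.21 to -2.92). The transcripts of the 2 subunits did not keep their ratio, with 42.6 counts of S100A8 for every 100 of S100A9 in OLFM4-wild cells (40.8 to 44.6), 25.1 in OLFM4-knockout cells (23.5 to 26.8) and 36.4 in the library labelled OLFM4-active (32.6 to 40.6). The 3 intervals did not overlap. S100A7, which encodes psoriasin, had 59 counts in OLFM4-wild cells, 12 in OLFM4-knockout cells (-3.75, -4.83 to -2.89) and 1 in the library labelled OLFM4-active (-5.70, -11.61 to -3.74). S100A7 passed the filter through OLFM4-wild cells alone, so its lower levels cannot serve as support for a fall. S100A12, the remaining gene of the stretch, had 28, 8 and 3 counts and stayed under the filter. S100A8, S100A9 and S100A12 are also abundant in myeloid cells. Of 7 leukocyte markers 0 reached a mean of 1 CPM, and their summed levels were 0.881, 0.838 and 0.293 CPM. The myeloid marker ITGAM had 14, 0 and 1 counts, highest in OLFM4-wild cells as the 3 S100 genes were, whereas CD14 had 2, 25 and 6 counts and the B-cell marker CD79A 0, 14 and 0. MPO and CD3E were at 0 in each library, and PTPRC and CSF3R had 2 counts each in OLFM4-knockout cells and 0 elsewhere. The part of such cells in the S100 values was not tested.

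The S100 genes of the next stretch, which begins 73.9 kb further on and spans 97.4 kb (chr1:153534599-153632039), were level or higher in OLFM4-knockout cells. Of the 8 of its 9 genes that passed the filter, 4 were called higher and 0 lower, against 2.77% and 3.96% of all genes tested. The log2 fold changes of the 8 ran from 0.19 to 2.13 with a median of 0.98. S100A2 (chr1:153561108-153567890, minus strand), a calcium-binding protein of basal epithelial cells that binds p53 and p63, had 5338 counts in OLFM4-wild cells, 66095 in OLFM4-knockout cells and 14189 in the library labelled OLFM4-active, or 294, 1288 and 594 CPM. The 3 libraries were ordered with OLFM4-wild cells lowest and OLFM4-knockout cells highest. The log2 fold change was 2.13 (2.09 to 2.17) in OLFM4-knockout relative to OLFM4-wild cells and 1.02 (0.97 to 1.06) in the library labelled OLFM4-active, where the interval reached across the 2-fold limit. Measured within each library against S100A6 of the same stretch, S100A2 had 63.1 counts for every 100 in OLFM4-wild cells (61.0 to 65.4), 172 in OLFM4-knockout cells (169 to 174) and 114 in the library labelled OLFM4-active (111 to 117).

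S100A3, known from the hair cuticle, lies next to S100A2 and had 48, 568 and 199 counts. Its level went from 2.64 CPM to 11.1 CPM in OLFM4-knockout cells and 8.33 CPM in the library labelled OLFM4-active, with log2 fold changes of 2.05 (1.64 to 2.52) and 1.65 (1.20 to 2.14), and it was the 1 member called higher in the latter. S100A16 went from 163 CPM to 406 CPM in OLFM4-knockout cells (1.32, 1.26 to 1.37), and S100A13, which takes part in the release of the growth factor FGF1, from 17.0 to 40.4 CPM (1.25, 1.08 to 1.43). Both calls were lost with library totals in place of TMM, where the log2 fold changes were 0.96 and 0.89. For every 100 counts of S100A16 there were 10.4, 9.96 and 8.61 of S100A13 in OLFM4-wild cells, OLFM4-knockout cells and the library labelled OLFM4-active, with intervals of 9.25 to 11.7, 9.52 to 10.4 and 7.85 to 9.44, so the ratio of these 2 genes differed little. The exons of S100A13 share 536 bases with a long noncoding gene on the same strand, which makes its counts uncertain.

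S100A6, known as calcyclin, had 465, 750 and 521 CPM, and its log2 fold change of 0.69 (0.66 to 0.72) in OLFM4-knockout cells stayed within 2-fold, like that of S100A14 (164, 268 and 212 CPM, 0.71, 0.65 to 0.77). S100A4, known for its link to cell motility, had 4.79, 5.57 and 4.31 CPM, and S100A1, a gene of heart and skeletal muscle, had 1.93, 2.22 and 0.670 CPM. S100A5 had 0, 4 and 0 counts. S100A10, the light chain that binds annexin A2, and S100A11, a partner of annexin A1, lie as a pair at the other end of the cluster and were not called in any comparison. S100A10 had 223, 236 and 277 CPM and S100A11 had 224, 254 and 261 CPM, and the counts of S100A10 for every 100 of S100A11 were 99.4 (95.2 to 104), 92.9 (90.6 to 95.2) and 106 (102 to 110). The log2 fold changes of S100A10 (0.09), S100A11 (0.18), S100A1 (0.19) and S100A4 (0.21) in OLFM4-knockout relative to OLFM4-wild cells turned negative with library totals, which lower each log2 fold change of that comparison by 0.35.

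**Figure D3:**
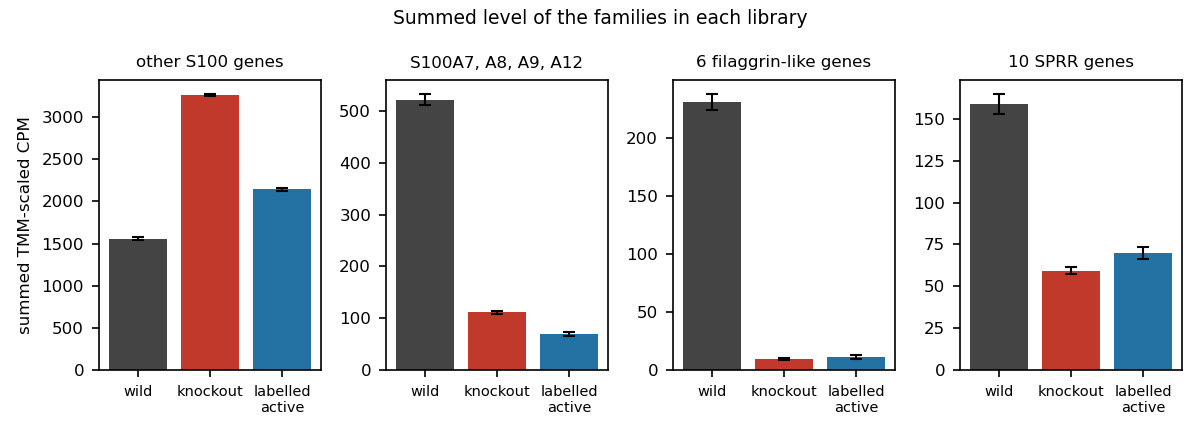
Summed TMM-scaled CPM of 4 groups of members in each library, with 95% Clopper-Pearson counting intervals as error bars and each vertical axis starting at 0. The 11 other S100 genes sum to 1559 CPM in OLFM4-wild cells and 3262 CPM in OLFM4-knockout cells, while S100A7, S100A8, S100A9 and S100A12 sum to 522 and 111 CPM. The filaggrin-like and SPRR sums, of which FLG and SPRR1B make up the larger part, are highest in OLFM4-wild cells.

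The summed level of the 40 genes was 2494 CPM in OLFM4-wild cells, 3452 CPM in OLFM4-knockout cells and 2307 CPM in the library labelled OLFM4-active, and different genes made it up. S100A2 took 11.8% of the members' counts in OLFM4-wild cells (95% Clopper-Pearson interval 11.5% to 12.1%), 37.3% in OLFM4-knockout cells (37.1% to 37.5%) and 25.7% in the library labelled OLFM4-active (25.4% to 26.1%). S100A9 took 14.5%, 2.55% and 2.20% in the same order. Per kb of exon, so that genes of different length can be compared, S100A9 had the highest level of the members in OLFM4-wild cells, at 633 CPM per kb, ahead of S100A6 at 479. In OLFM4-knockout cells S100A2 led at 833 CPM per kb, ahead of S100A6 at 773, and in the library labelled OLFM4-active S100A6 led at 536, ahead of S100A11 at 403.

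**Figure D4:**
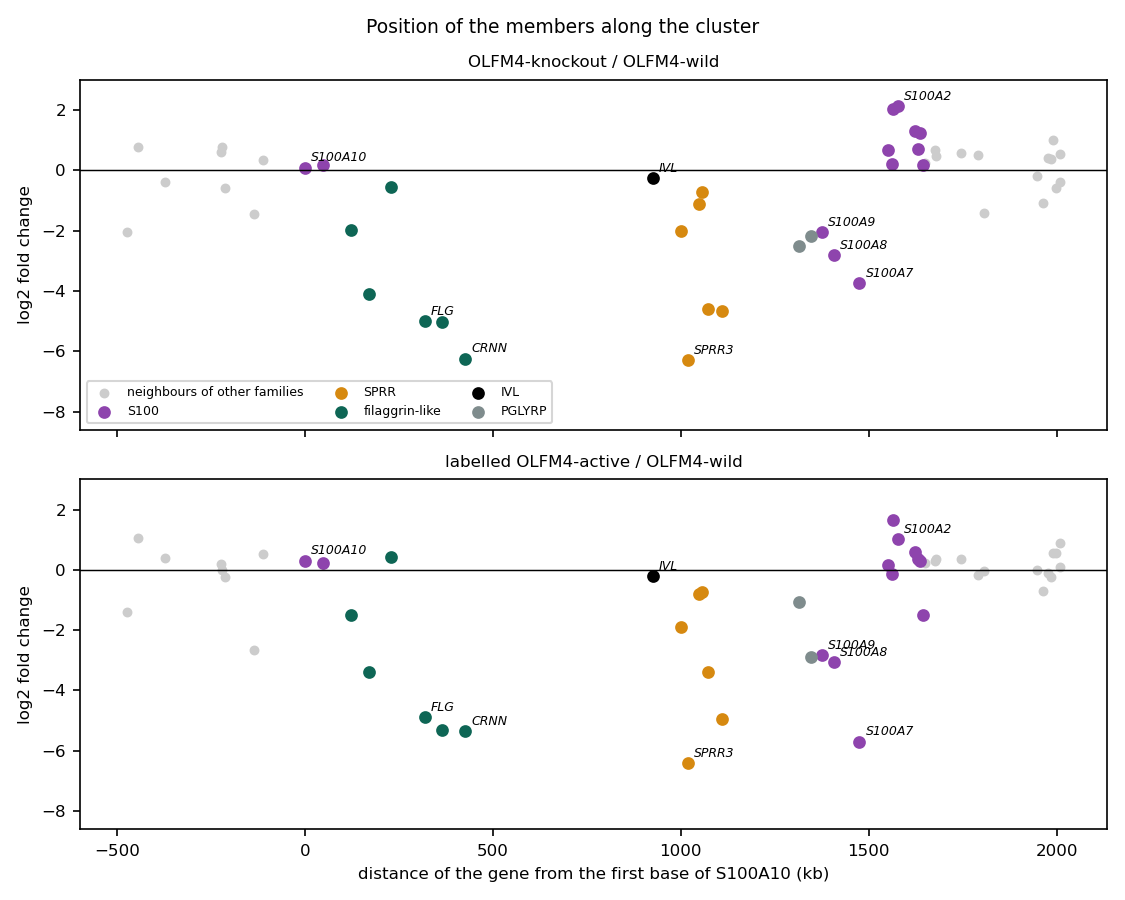
Log2 fold change of each member that passed the filter against its distance in kb from the first base of S100A10, coloured by family, with protein-coding neighbours of other families in grey, for OLFM4-knockout cells (top) and the library labelled OLFM4-active (bottom) against OLFM4-wild cells. CRNN in the bottom panel stands at its 40.8-fold bound. The lowest points lie in the filaggrin-like block and among the SPRR genes and S100A7, S100A8 and S100A9. Of these, FLG2, RPTN, CRNN, SPRR2A, SPRR2E, SPRR3 and S100A7 passed the filter through OLFM4-wild cells alone. Their position cannot serve as support for a fall. S100A2 and its neighbours lie above 0 in the top panel.

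The library labelled OLFM4-active was set against OLFM4-wild cells in the same way. Of the 28 members that passed the filter, 1 was called higher (S100A3) and 12 lower, against 1.48% and 3.19% of all genes tested, and their median log2 fold change was -1.28 against 0.05. That median includes members that passed the filter through OLFM4-wild cells alone and so had to be lower here. Among the 19 members with at least 1 CPM in each library, 1 was called higher and 5 lower (FLG, SPRR1A, PGLYRP4, S100A8 and S100A9), against 1.25% and 2.25% of the genes at that level, and the median was -0.15 against 0.06. This comparison shares OLFM4-wild cells with the one above, so the like directions of the members are not independent of each other. S100A1, with 35 counts in OLFM4-wild cells and 16 in the library labelled OLFM4-active, had a log2 fold change of -1.50 (-2.48 to -0.63) there, while it had 0.19 (-0.35 to 0.80) in OLFM4-knockout cells.

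**Figure D5:**
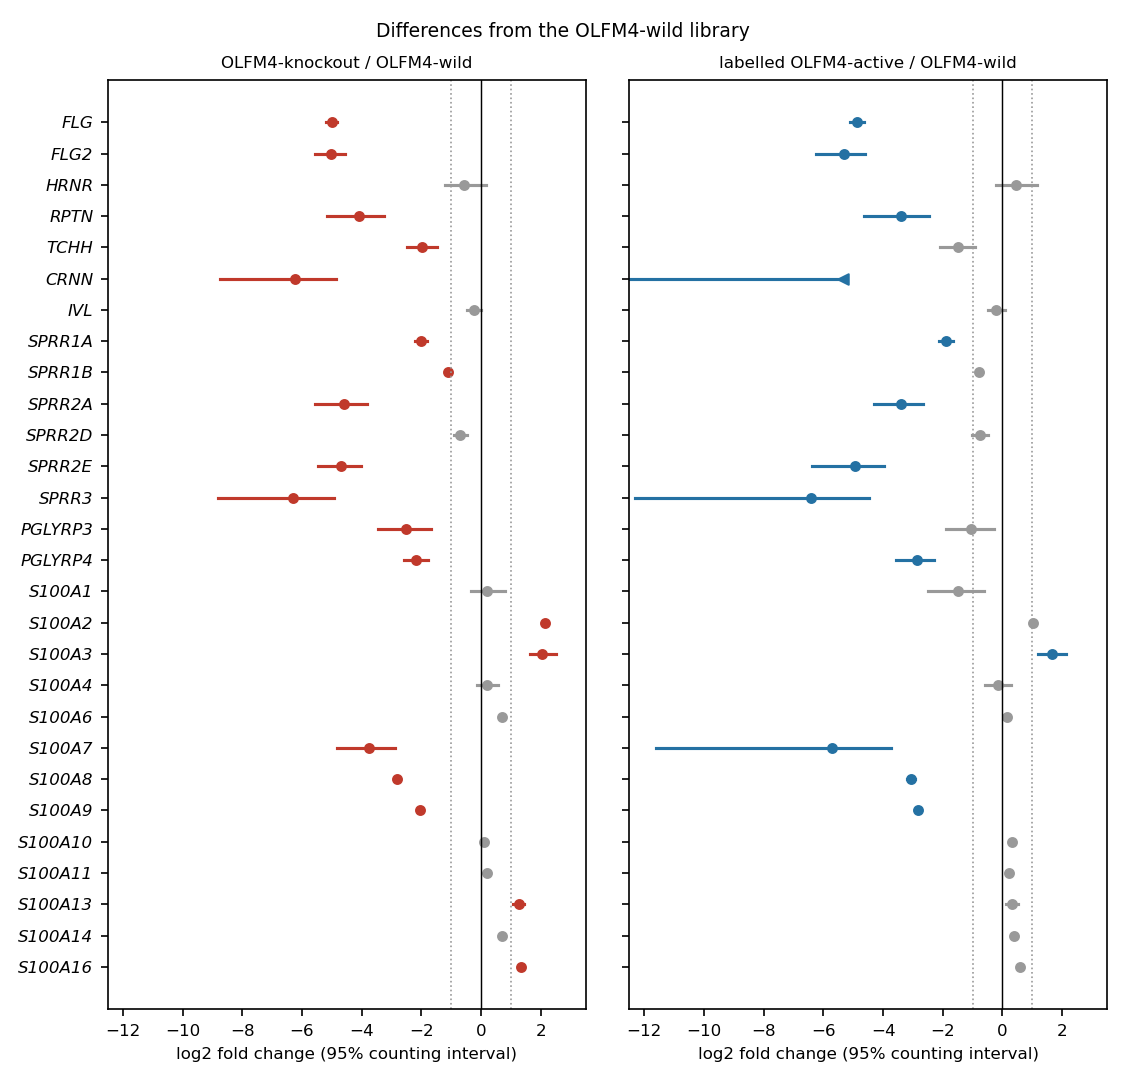
Log2 fold change of the 28 members with its 95% counting interval, for OLFM4-knockout cells (left) and the library labelled OLFM4-active (right) against OLFM4-wild cells, coloured where the whole interval lies past 2-fold (dotted lines) and grey otherwise. CRNN, with 0 counts in the library labelled OLFM4-active, is drawn as an arrow at its bound of 40.8-fold. S100A2, S100A3, S100A13 and S100A16 are coloured on the right of 0 in the left panel, and S100A3 in the right panel.

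Set directly against each other, OLFM4-knockout cells and the library labelled OLFM4-active differed in few of these genes by the same rule. Of the 28 members, 1 was called higher (S100A2) and 0 lower in OLFM4-knockout cells, against 0.843% and 1.22% of all genes tested. The log2 fold change of S100A2 was 1.12 (1.09 to 1.14), and the call was lost with library totals and with upper quartile factors. S100A9 had 0.79 (0.70 to 0.88), S100A8 0.26 (0.10 to 0.42) and SPRR1B -0.31 (-0.41 to -0.20), all within 2-fold. S100A1 (1.69, 0.97 to 2.58) and PGLYRP3 (-1.45, -2.43 to -0.50) had intervals that lay to 1 side of 0 but reached inside 2-fold. For FLG2 (-0.62 to 1.30), SPRR2E (-0.98 to 1.83) and SPRR3 (-3.16 to 6.20) the intervals spanned 0 widely, so a difference was not detectable at this depth.

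The enzymes that cross-link or process these proteins differed among themselves. TGM1, the transglutaminase 1 that builds the envelope, had 177, 363 and 157 CPM and a log2 fold change of 1.04 (0.98 to 1.09) in OLFM4-knockout relative to OLFM4-wild cells, which was not called since its interval reached below 2-fold. CASP14, the caspase that helps to process filaggrin, went from 189 CPM to 22.2 and 21.3 CPM (-3.09, -3.19 to -2.99 in OLFM4-knockout cells). Of the 11 enzymes of 14 that passed the filter, 0 were called higher and 3 lower in OLFM4-knockout cells, against 2.77% and 3.96% of all genes tested. The 3 were CASP14, the profilaggrin protease ASPRV1 (-2.08), whose exons overlap those of PCBP1-AS1 on the same strand, and the transglutaminase TGM2 (-1.37). In the library labelled OLFM4-active, 0 were called higher and 5 lower, against 1.48% and 3.19%. TGM1 was called higher in OLFM4-knockout cells relative to that library (1.21, 1.16 to 1.27). Of the partners and receptors of S100 proteins, 7 of 9 passed the filter and 0 were called in either direction. Annexin A2 (ANXA2) had 1193, 1690 and 1090 CPM, annexin A1 (ANXA1) 261, 522 and 446 CPM, and the receptor AGER 2.37, 1.36 and 1.34 CPM.

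Transcription factors known to act on these genes were listed as well, and 19 of the 20 passed the filter. In OLFM4-knockout relative to OLFM4-wild cells 3 were called higher and 6 lower, against 2.77% and 3.96% of all genes tested, and in the library labelled OLFM4-active 1 was called higher and 5 lower, against 1.48% and 3.19%. The AP-1 subunits split, with FOSL1 (11.7, 45.5 and 84.6 CPM) and FOS (280, 847 and 571 CPM) higher in OLFM4-knockout cells, at log2 fold changes of 1.96 (1.76 to 2.17) and 1.60 (1.56 to 1.64), and FOSL2 (286, 122 and 156 CPM) lower at -1.23 (-1.28 to -1.18). CEBPA, a factor of late epidermal differentiation, was the third gene called higher (1.28). The ETS-family factors EHF (52.0, 8.59 and 6.07 CPM, -2.60) and ELF3 (22.9, 9.21 and 5.32 CPM, -1.31) were among those called lower, with PRDM1 (7.10, 1.17 and 1.26 CPM, -2.60) and MAF (-1.15). The p63 gene TP63, the master factor of basal epithelium, had 414, 472 and 450 CPM, GRHL3 had 33.8, 32.1 and 22.5 CPM and KLF4 had 103, 72.4 and 56.4 CPM, and the calls included none of them.

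Some markers of the layers were called in the same comparisons. Of the 7 basal markers, 3 (KRT5, KRT14 and KRT15) were called higher in OLFM4-knockout cells, against 2.77% of all genes tested, and 0 in the library labelled OLFM4-active. Of the 6 markers of suprabasal keratinocytes, 5 passed the filter, and KRT1 (463, 80.2 and 137 CPM) and DSC1 (28.5, 1.36 and 1.84 CPM) were called lower in OLFM4-knockout cells, 2 of the 5 against 3.96% of all genes, while KRT10 had 1217, 1331 and 842 CPM. In the library labelled OLFM4-active, 4 of the 5 were called lower (KRT1, KRT2, DSG1 and DSC1), against 3.19%. LORICRIN, the main envelope protein of the epidermis, had 9, 0 and 1 counts. The summed suprabasal level was 2021, 1582 and 1118 CPM in OLFM4-wild cells, OLFM4-knockout cells and the library labelled OLFM4-active. The part of these markers in the members' differences was not tested. The fibroblast markers (34.1, 31.8 and 22.9 CPM, nearly all COL1A1) and the endothelial markers (0.605, 0.136 and 0.0837 CPM) stayed low.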

How the data were processed

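The deposited table holds whole-number counts per gene that the authors made from stranded RNA-seq read pairs with cutadapt, HISAT2 and featureCounts on GRCh38, with no normalization. Of its 58037 identifiers, 56948 (98.1%) matched GENCODE version 44, which gave names, positions and exons. The 40 members and the other gene lists were chosen with earlier results of these data known. All members are named, and of the other lists the genes called in OLFM4-knockout relative to OLFM4-wild cells, with further ones picked after their values were seen.

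Library sizes were scaled with TMM factors of edgeR 4.0.16 (1.11, 0.872 and 1.03 for OLFM4-wild, OLFM4-knockout and OLFM4-active) in R 4.3.3, which served for scaling alone. Log2 fold changes took an offset of 0.5 counts. Calls were made on genes whose CPM averaged 1 or more. The floor was 3 counts. PCR copies are not independent molecules, so intervals and floors cover counting error only. Other steps used Python 3.11.15, scipy 1.17.1, pandas 2.3.3, numpy 2.4.6 and matplotlib 3.10.9. The procedure was tested on simulated counts that vary by counting error alone. Such counts do not show how far libraries of the same condition would differ. Repeats were counted as 75-base exon windows found more than once in the genome. Alternatives were library totals, size factors of DESeq2 1.42.0, upper quartile factors, thinning to the shallowest library, other filters and offsets. No column was left without a sample, and no comparison columns of the authors were used. The values of some genes of the lists are not reported here.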

Additional observations from a re-analysis of the deposited data

How the results depend on the processing

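In OLFM4-knockout relative to OLFM4-wild cells, library totals in place of TMM left 2 members called higher (S100A2 and S100A3) and a median of -1.89, and over all genes they called 0.968% higher and 8.07% lower. The median was -2.00 with a filter of 10 counts over both libraries and -2.02 with a filter of 1 count, and both filters added SPRR2G, LCE3D and S100A12 to the members called lower, 18 in all. It was -1.92 with factors and filter from these 2 libraries alone, an alternative chosen after seeing the data. The call of SPRR1B was lost there and with DESeq2 size factors, and that of S100A13 with upper quartile factors. In the library labelled OLFM4-active relative to OLFM4-wild cells, the median was -2.07 with a filter of 1 count. Between OLFM4-knockout and the library labelled OLFM4-active, 0 members were called higher with library totals or upper quartile factors. The looser filters add members by construction, and the cause of the other shifts was not tested. Over the 4 scalings 24 of 28 members kept the sign in the OLFM4-knockout and 28 of 28 in the library labelled OLFM4-active, each relative to OLFM4-wild cells. No paired analysis was possible because each condition has 1 library. Members with few counts were limited by depth, and 5 members in OLFM4-wild cells, 4 in OLFM4-knockout cells and 13 in the library labelled OLFM4-active were under the floor of 3 counts.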

Other observations

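Genes of other families around the cluster were counted as well. Of 29 protein-coding neighbours within the span of the members or 500 kb on either side of it, 22 passed the filter, and in OLFM4-knockout relative to OLFM4-wild cells 0 were called higher and 2 lower, against 2.77% and 3.96% of all genes tested. These were CGN (-2.04), which encodes the tight-junction protein cingulin, and GATAD2B (-1.40), a subunit of a chromatin-remodelling complex. The median log2 fold change of the 22 was 0.36. In the library labelled OLFM4-active relative to OLFM4-wild cells, 1 of the 22 was called lower (THEM5, -2.65) and 0 higher, against 3.19% and 1.48%, with a median of 0.15.

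The remaining 22 listed genes of the complex were at or near 0. None of them reached a mean of 1 CPM, and their summed level was 2.75 CPM in OLFM4-wild cells, 0.896 CPM in OLFM4-knockout cells and 0.460 CPM in the library labelled OLFM4-active. S100A7A, a close copy of S100A7, had 11, 0 and 0 counts, KPRP had 8, 1 and 1, and PRR9 had 4, 24 and 5. Of the 4 S100 genes outside 1q21, S100P on another chromosome passed the filter, with 1.49, 2.55 and 0.460 CPM, and it was called higher in OLFM4-knockout cells against the library labelled OLFM4-active (2.41, 1.58 to 3.51).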
